A study of Mus musculus with 13 samples.

Results

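The regions described here gained acetylation of lysine 27 on histone H3 (H3K27ac) after 4 h of interferon-γ (IFNγ) and had no called H3K27ac when interleukin-4 (IL-4) was given with it. The mark was mapped by chromatin immunoprecipitation and sequencing (ChIP-seq). The 13 libraries, 1 for each condition, came from macrophages of C57BL/6 mice that had been grown from bone marrow for 7 days. A cytokine experiment of 7 libraries held untreated cells and cells treated for 2 h or 4 h with IFNγ at 100 ng/ml, with IL-4 at 10 ng/ml or with the cytokines together. A knockdown experiment of 6 libraries held cells with a scramble shRNA, with shJunB or with shCEBPb, each untreated or given IFNγ (100 ng/ml) for 4 h and none given IL-4. Enriched islands of all libraries were merged where they overlapped by at least 1 bp, which gave 39569 regions. Members were chosen by 4 libraries: they hold an island in IFNγ 4 h and none in IFNγ plus IL-4 4 h, untreated or IL-4 4 h, which 2785 regions did (7.04%). They are called erased below, in the sense alone that no island was called with IL-4: an island not called is no measurement of 0. For comparison, 2745 retained regions were gained in the same way but did hold an island in IFNγ plus IL-4 4 h.

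H3K27ac marks active promoters and enhancers, and IFNγ raises it at its targets through the kinases JAK1 and JAK2. The gamma-activated sequence (GAS) is a DNA element of IFNγ-responsive promoters, and interferon regulatory factors bind interferon-stimulated response elements (ISRE). IL-4 acts through STAT6 and drives the alternative activation of macrophages, whose programme opposes the inflammatory state set by IFNγ. JunB belongs to the AP-1 family and CEBPb to the C/EBP family of transcription factors, and members of both are induced in activated macrophages.

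Few erased regions lay at promoters, and the 4 shown here are start sites that the results name again. Each line gives the 250 bases before a transcript start on the strand of the gene, from RefSeq (GRCm38.p6), with motif matches in capitals and positions counted from -1 beside the start. Gfi1b, a transcription factor gene of red cell and platelet precursors (chr2:28621983-28622232, minus strand), holds a GAS at -133 and a STAT6 type motif at -163. Defb33, a beta-defensin gene (chr8:20892417-20892666, plus strand), holds a GAS at -195. Il23r, the receptor chain specific to interleukin-23 (chr6:67491856-67492105, minus strand), holds 4 C/EBP matches and 1 NF-kB match. Rnase10, of the ribonuclease A family (chr14:51007501-51007750, plus strand), holds 2 C/EBP matches. Start sites were at hand for 17491 of 21883 protein-coding genes. Among erased regions that hold one of these, the region at Rnase10 had the most reads in IFNγ 4 h.
Gfi1b: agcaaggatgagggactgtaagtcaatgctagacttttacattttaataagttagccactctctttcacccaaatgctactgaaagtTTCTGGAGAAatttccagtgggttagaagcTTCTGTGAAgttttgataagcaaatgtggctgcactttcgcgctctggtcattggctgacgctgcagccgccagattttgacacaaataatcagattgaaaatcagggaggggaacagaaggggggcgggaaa
Defb33: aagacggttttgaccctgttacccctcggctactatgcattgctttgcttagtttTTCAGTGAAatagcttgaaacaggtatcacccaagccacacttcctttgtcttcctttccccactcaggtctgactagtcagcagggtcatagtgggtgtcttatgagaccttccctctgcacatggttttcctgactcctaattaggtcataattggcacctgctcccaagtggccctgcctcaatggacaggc
Il23r: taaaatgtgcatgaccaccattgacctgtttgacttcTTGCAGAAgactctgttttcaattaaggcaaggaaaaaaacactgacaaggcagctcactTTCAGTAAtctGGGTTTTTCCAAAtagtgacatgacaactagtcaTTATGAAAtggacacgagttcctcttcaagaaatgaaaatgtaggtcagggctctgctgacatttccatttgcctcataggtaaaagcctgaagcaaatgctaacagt
Rnase10: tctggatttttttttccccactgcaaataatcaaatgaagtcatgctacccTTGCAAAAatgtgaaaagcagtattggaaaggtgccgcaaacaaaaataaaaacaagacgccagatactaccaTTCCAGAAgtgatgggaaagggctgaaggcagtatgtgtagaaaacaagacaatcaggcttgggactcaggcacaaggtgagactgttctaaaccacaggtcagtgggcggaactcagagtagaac

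Of the 25236 regions with an island in IFNγ 4 h, 7120 had none in untreated cells and 5530 had none in either untreated or IL-4 4 h cells. The 2785 erased regions are 50.4% of these gained regions and the 2745 retained regions 49.6%. IFNγ 4 h reads were then scaled to the depth of untreated cells, the shallowest of the 4 libraries. Of the erased regions, 1034 still reached the highest 5th percentile of raw reads per island among the barred libraries. That value, 65 in IFNγ plus IL-4 4 h, was left at its library's own depth, so 1034 is not a count at matched depth. The reverse choice, an island in IFNγ plus IL-4 4 h and none in IFNγ 4 h, untreated or IL-4 4 h, found 832 regions. These numbers come from single libraries, and the IFNγ plus IL-4 4 h library was the deepest, at 37.4 M reads against 35.7 M for IFNγ 4 h, 25.5 M for IL-4 4 h and 21.7 M for untreated cells. The cytokine libraries held 21.7 to 37.4 M reads with 77.1% to 79.98% in islands, and the knockdown libraries 14.3 to 29.5 M with 65.1% to 73.0%, scramble with IFNγ being the shallowest. No condition had a replicate, so no value below can be set against a spread between cultures. In bulk libraries, fewer cells with the mark and less of it per cell cannot be told apart. The loss of JunB or CEBPb itself was not analysed here. Binomial intervals are exact, at 95%, and cover counting error alone. All 10 macrophage marker genes, Csf1r and Adgre1 among them, held islands in all 13 libraries. Markers of other cells with islands in all 13 libraries numbered 3 of 6 for T cells, 4 of 5 for B cells, 4 of 5 for dendritic cells, 1 of 5 for neutrophils and 3 of 3 for endothelium, and 0 for NK cells, mast cells, fibroblasts and erythroid cells, with Cd8a, Pax5, Ncr1 and Col1a2 called in none. Erased regions touched S100a8, Cdh5 and Kdr among these, whose part in the results was not tested.

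Erased regions were short and weak. Their median length was 3000 bp against 5200 bp for retained regions and 5400 bp for all regions. That is the length after merging all 13 libraries, of which a median of 2, 5 and 8 held an island. The length called in IFNγ 4 h had medians of 2200 bp, 3400 bp and, over all regions with an island there, 4000 bp. In IFNγ 4 h, the library that chose them, erased regions held a median of 66.8 normalised reads, that is, reads divided by the size factor of the library. Retained regions held 154 and all regions with an island there 274. Per kb of called island the medians were 32.2, 45.4 and 64.7 normalised reads. The authors' deposited fold of ChIP over control had medians of 2.17, 3.39 and 3.59. By reads, the median erased region stood at percentile 14.1 of all regions with an IFNγ 4 h island, and 77 (2.76%) were in the upper part above the median, against 29.1% of retained regions.

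How few reads an island could have and still be called differed between libraries. The 5th percentile of normalised reads per island was 57.1 in untreated cells, 43.5 in IFNγ plus IL-4 4 h and 38.0 in IL-4 4 h. In IFNγ 4 h, 498 erased regions (17.9%) lay under the value for IFNγ plus IL-4 4 h, and 1079 (38.7%) under that for untreated cells. At 114 reads or more, which is 2 times the highest of these values, stood 586 erased regions (21.0%) and 62.3% of the retained ones. In the reverse set 117 regions reached that level in IFNγ plus IL-4 4 h.

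**Figure D1:**
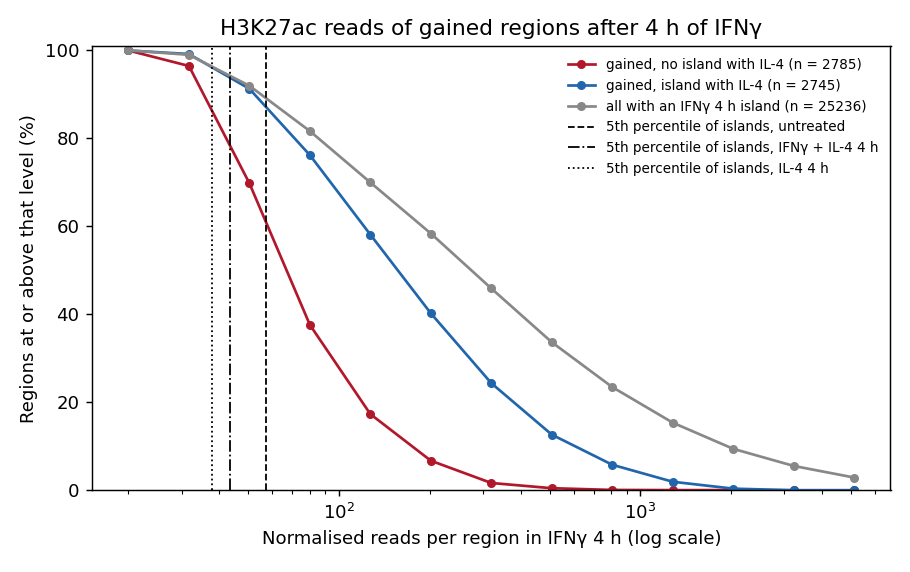
Percent of regions at or above a given number of normalised H3K27ac reads in IFNγ 4 h (x axis, log scale), for erased regions (red), retained regions (blue) and all regions with an IFNγ 4 h island (grey). Vertical lines mark the 5th percentile of normalised reads per island in the 3 libraries barred by the choice, the highest being 57.1; the erased regions have their median at 66.8 and the retained at 154.

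The values at the edge of the choice are given as a description. The erased regions with the highest deposited FDR in IFNγ 4 h were at Slx4ip and Jag1 (100.5 normalised reads, FDR 0.00947), Hdac9 (72.8 reads, FDR 0.00941) and Slmap (72.8 reads, FDR 0.00941). Just outside stood a region in Sdccag8 with 52.5 reads in IFNγ 4 h and 22.1 in IFNγ plus IL-4 4 h. Others just outside were a region 59.4 kb from Slco5a1 (29.3 and 24.1 reads) and a region in Pcnx2 (72.8 and 24.1 reads).

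The other 9 libraries, which the choice did not use, were asked for islands in the same regions. In IFNγ 2 h 639 erased regions held an island (22.9%, 21.4 to 24.6), against 59.9% of retained regions and 57.0% of all regions. In IFNγ plus IL-4 2 h the shares were 17.8% (16.4 to 19.2), 57.7% and 60.9%. IL-4 alone for 2 h gave 3.45% (2.80 to 4.19), 7.07% and 53.7%. Neither 2 h library with IFNγ held an island in 2042 erased regions (73.3%), against 34.2% of retained and 34.7% of all regions.

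In the knockdown experiment the share of erased regions with an island was higher after IFNγ than without it in each of the 3 backgrounds. Scramble cells went from 9.19% (8.14 to 10.3) untreated to 27.3% (25.6 to 28.9) with IFNγ, where all regions stood at 59.1% and 56.5%. In shJunB cells the shares were 8.11% (7.13 to 9.19) and 31.7% (29.9 to 33.4), against 57.0% and 59.7% of all regions. With shCEBPb they were 11.96% (10.8 to 13.2) and 31.3% (29.6 to 33.1), against 62.0% and 59.1%. Retained regions were called more often in each IFNγ library, at 57.2%, 63.7% and 64.3%.

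All 3 IFNγ libraries of the knockdown experiment held an island in 482 erased regions (17.3%), against 49.5% of retained and 50.5% of all regions. All 3 untreated libraries did so in 129 (4.63%), against 7.58% and 51.1%. An island in all 3 IFNγ libraries and in no untreated library was found for 253 erased regions (9.08%, 8.04 to 10.2), 31.1% of retained regions and 3.87% of all regions. The opposite, all 3 untreated and no IFNγ library, held for 3 erased regions (0.108%) and 3.14% of all regions. These 3, singled out after their values were seen, lay 65.1 kb from Snx13, in Ncoa4 and Timm23, and 135 kb from 4933412E24Rik. The region at Ncoa4 had 159 normalised reads in IFNγ 4 h and 103, 139 and 125 in the untreated scramble, shJunB and shCEBPb libraries. Leaving out scramble with IFNγ, the shallowest library, 22.01% of erased regions held an island in both other IFNγ libraries.

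**Figure D2:**
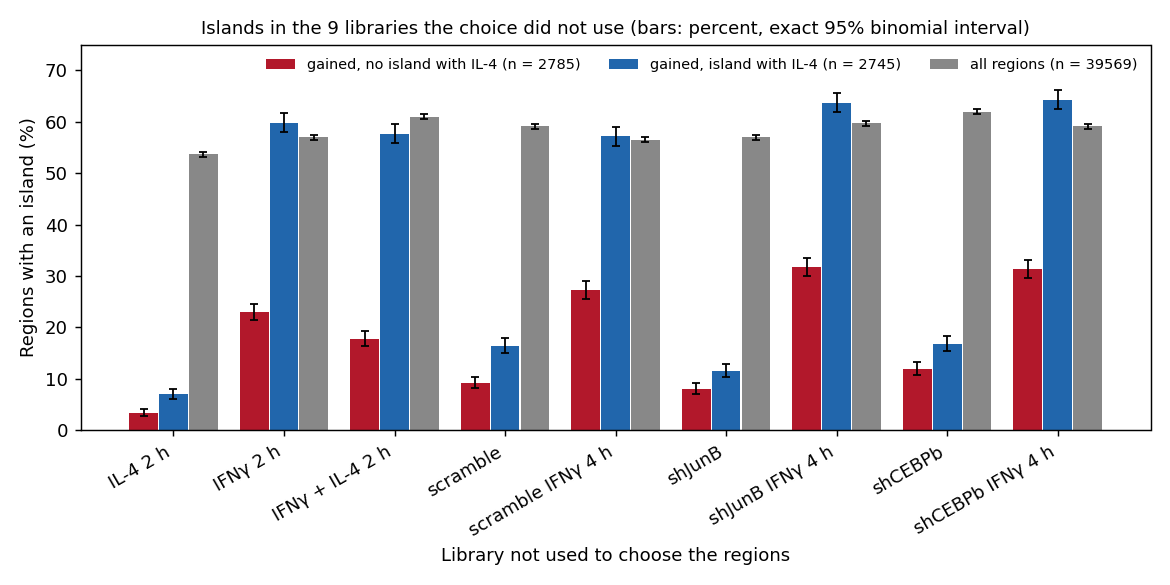
Percent of regions with a called H3K27ac island in each of the 9 libraries that the choice did not use, for erased (red), retained (blue) and all regions (grey), with exact 95% binomial intervals. The red bars are higher in the 3 IFNγ libraries of the knockdown experiment (27.3% to 31.7%) than in its untreated libraries (8.11% to 11.96%), and lower than the blue bars throughout.

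Many erased regions were called in IFNγ 4 h alone. None of the 9 libraries outside the choice, and so no other library at all, held an island in 1179 of them (42.3%). The 9 libraries held no island in 316 retained regions (11.5%) and in 3459 of all regions (8.74%), and 16.4% of all regions were called in exactly 1 library. By the choice, every region called in IFNγ 4 h alone is an erased region, and no retained region can be called in 1 library alone. The 42.3% beside the 16.4% is thus set in part by the choice and is no test. IFNγ 4 h had more regions called in it alone than any of the other 12 libraries, which had 127 to 845. The 1179 regions had a median of 57.8 normalised reads in IFNγ 4 h and the 1606 with an island elsewhere 76.1. Among knockdown libraries with IFNγ, which carry different shRNAs, 6.18% to 12.5% of the regions called in a library had no island in another. Of regions called in scramble untreated cells, 16.9% had none in untreated cells of the cytokine experiment, and 10.1% the other way. Of regions called in IFNγ 4 h, 15.8% had none in IFNγ plus IL-4 4 h, and 11.7% the other way. Libraries with like cytokine treatment thus also differed.

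Level and recurrence moved together. Of erased regions with fewer than 50 reads in IFNγ 4 h 6.93% held an island in all 3 IFNγ libraries of the knockdown experiment, of those with 100 to 200 reads 28.2%, of those with 200 to 400 reads 48.4% and of the 27 with 400 or more 85.2%. Retained regions of the same levels gave 11.97%, 41.8%, 68.4% and 91.1%. Between 50 and 400 reads the intervals of erased and retained regions did not overlap, and under 50 and at 400 or more they did. This is no test between the groups, as the intervals cover counting error in single libraries alone. The levels are broad bands of reads in the library that chose the regions, so reads may still differ within a band.

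Islands at 2 h were also less often shared between IFNγ and IFNγ plus IL-4. Of the 639 erased regions with an island in IFNγ 2 h, 391 (61.2%, 57.3 to 65.0) also held one in IFNγ plus IL-4 2 h, against 86.4% (84.7 to 88.0) of 1643 retained regions and 92.4% of all. At every level under 400 reads in IFNγ 4 h the share was lower for erased than for retained regions, with 76.8% against 97.0% under 50 reads and 44.6% against 82.7% at 200 to 400. At 400 or more, 10 of 15 erased regions (66.7%) stood against 87.3% of retained ones. An island in IFNγ 2 h and none in IFNγ plus IL-4 2 h was found in 248 erased regions (8.90%), 8.12% of retained and 4.34% of all regions. The other way round it was found in 104 (3.73%), 5.97% and 8.26%. The 2 h libraries stood at 24.1 M reads for IFNγ and 26.9 M for IFNγ plus IL-4.

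**Figure D3:**
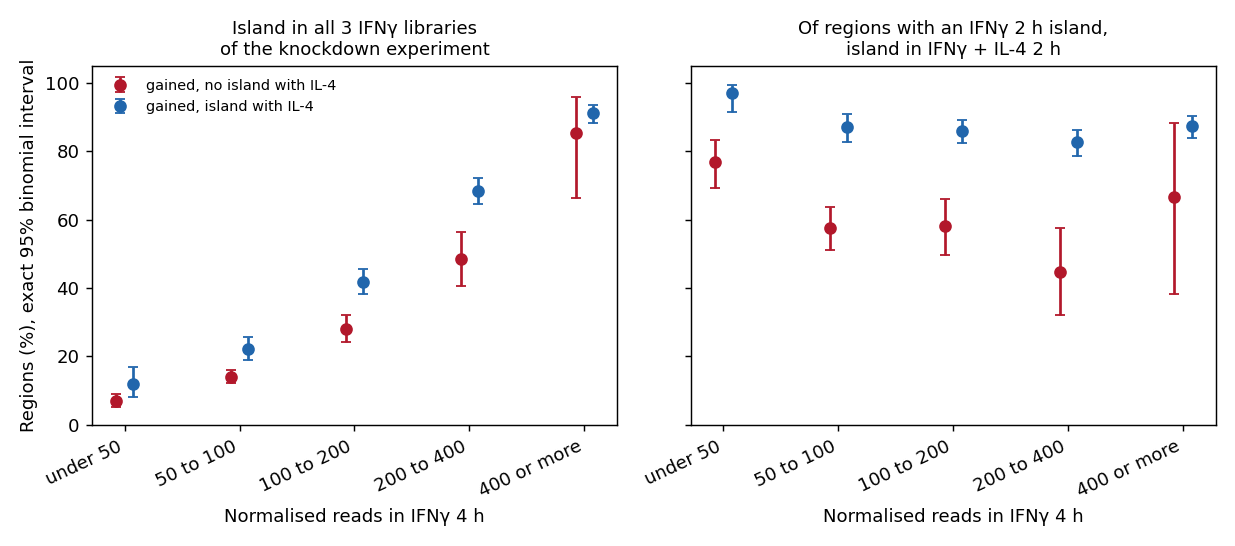
Percent of erased (red) and retained (blue) regions by their normalised reads in IFNγ 4 h, with exact 95% binomial intervals. Left, regions with an island in all 3 IFNγ libraries of the knockdown experiment, which rises from 6.93% to 85.2% for erased regions; right, the share of regions with an IFNγ 2 h island that also held one in IFNγ plus IL-4 2 h.

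Where both libraries of a pair had an island, reads of the called islands could be compared, though these may cover unlike stretches of a region. Over 391 erased regions the median log2 ratio of IFNγ 2 h to IFNγ plus IL-4 2 h was 0.39 (distribution-free 95% interval over regions 0.31 to 0.46), with 281 above 0. It was 0.21 over 1420 retained regions and 0.01 over all 20847. The interval takes regions of single libraries as independent and covers no spread between cultures. For IFNγ 4 h against untreated cells the medians over erased regions were 0.48 in scramble cells (n = 190), 0.42 in shJunB cells (n = 196) and 0.56 in shCEBPb cells (n = 268). As folds, these medians were 1.39, 1.34 and 1.48, against 2.18, 2.14 and 2.24 over retained regions and 1.00, 0.978 and 0.995 over all regions. These medians leave out every region without an untreated island. With missing islands set to the 5th percentile of each library they were 0.56 over 743 erased regions at 2 h and 0.66 over 825 in scramble cells. At 2 h the fill was 62.6 normalised reads for IFNγ and 43.8 for IFNγ plus IL-4. In scramble cells it was 60.5 with IFNγ and 51.9 untreated. Such fills push the ratios up by themselves, so the larger medians are no sign of a stronger effect.

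The 12 erased regions with the most reads in IFNγ 4 h all held islands in the 3 IFNγ libraries of the knockdown experiment, and 7 of them touched no protein-coding gene or the 1 kb beside it. The highest was an intergenic region of 34.6 kb, chr4:64117401-64152000, 70.4 kb from Tnc, which encodes the matrix glycoprotein tenascin-C. It held 2506 normalised reads (79.8 per kb of called island) in IFNγ 4 h, 805 in IFNγ 2 h, 42.8 in IFNγ plus IL-4 2 h and 119 in IL-4 2 h. The knockdown libraries with IFNγ held 1846 reads in scramble, 1796 in shJunB and 1490 in shCEBPb cells, and no untreated library of either experiment held an island. At 2 h, which the choice did not use, the reads of called islands were 18.8-fold higher with IFNγ than with IFNγ plus IL-4 (13.8 to 26.2). The 42.8 reads with IL-4 were near the 5th percentile of islands in that library (43.8). Reads outside called islands are not counted, so this fold may mix called length with signal.

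In the other 4 regions of this group with islands in both 2 h libraries, the size of the difference varied. The region chr11:49725401-49759200, 12 kb from Cnot6, a deadenylase gene, held more reads at 2 h (1443) than at 4 h (648) of IFNγ. With IL-4 added at 2 h it held 515 reads, 2.80-fold fewer (2.53 to 3.11). After IFNγ it held 458, 258 and 157 reads in scramble, shJunB and shCEBPb cells. A region chr4:58392601-58406600, 14.8 kb from Musk, the receptor tyrosine kinase of the neuromuscular junction, held 726 reads at 4 h and 271 at 2 h of IFNγ. IFNγ plus IL-4 2 h stood there at 102 reads, 2.67-fold fewer (2.11 to 3.39), and IL-4 2 h at 117. The region 143 kb from Trps1, a GATA-type repressor gene, held 102 reads in IFNγ 2 h and 33.9 with IL-4 added, 3.01-fold fewer (2.01 to 4.60). At Car2, a carbonic anhydrase gene, the 2 h libraries did not differ beyond counting error, with 85.6 and 81.7 reads (1.05-fold, 0.759 to 1.45).

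No island with IL-4 added was called at 2 h in 3 members of this group that had one with IFNγ alone. They were the region 81.0 kb from Enc1, a gene for an actin-binding protein (178 reads at 2 h and 777 at 4 h), the one 25.3 kb from Tmem123 (112 and 915) and the one in Tmc3 (135 and 675). Another region with a 2 h island in IFNγ but not in IFNγ plus IL-4, 18.5 kb from Bard1, held 498 reads at 4 h and 193 at 2 h of IFNγ and 612, 744 and 649 in scramble, shJunB and shCEBPb cells with IFNγ, with no island in any library without IFNγ. A region 48.8 kb from Ube2e3, a ubiquitin-conjugating enzyme gene, went the other way in scramble cells, with 106 reads untreated and 55.6 with IFNγ. It held 387 reads in IFNγ 4 h of the cytokine experiment, 214 in shCEBPb cells with IFNγ and no island in untreated shCEBPb cells or in either shJunB library. Neither 2 h library with IFNγ held an island at Rnase10 (563 reads at 4 h), Papss1 (540), Macc1 (537) or 455 kb from Zeb2 (669). Papss1 encodes a synthase of the sulfate donor PAPS, and its region chr3:131585201-131603600 held 375, 382 and 404 reads in scramble, shJunB and shCEBPb cells with IFNγ. None of the untreated libraries held an island at Papss1 or Macc1. Untreated knockdown cells did hold islands at 7 of the 12, Rnase10 among them with 129 reads in scramble and 63.6 in shCEBPb cells, so these are gained by the choice's own untreated library and not by all untreated libraries.

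**Figure D4:**
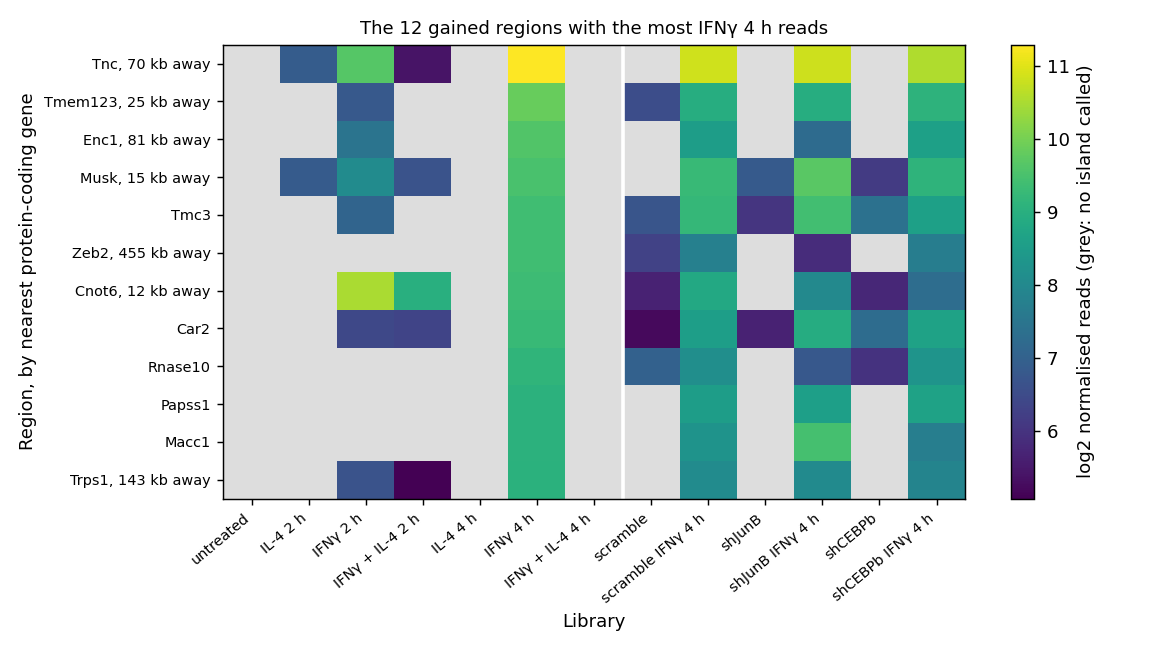
Heat map of log2 normalised H3K27ac reads of the 12 erased regions with the most reads in IFNγ 4 h (rows, by nearest protein-coding gene) in the 13 libraries (columns; the white line parts the cytokine and knockdown experiments). Grey cells have no called island, which the choice itself fixes in untreated, IL-4 4 h and IFNγ plus IL-4 4 h; all 12 rows are coloured in the 3 IFNγ columns of the knockdown experiment.

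An edgeR quasi-likelihood fit asked which regions changed with IFNγ over the 3 backgrounds of the knockdown experiment, with the background as a block. The 3 pairs carry different shRNAs and are not replicates of a single condition, and the fit covered the 17047 regions called in all 6 libraries, 98 of them erased. At a Benjamini-Hochberg adjusted p under 0.05 edgeR called 32 of the 98 erased regions higher and 3 lower, against 22.7% higher and 21.9% lower of all regions tested and 129 and 2 of 188 retained regions. The median log2 fold change was 0.51 over the 98, with 82 above 0, and 1.13 over the retained regions. These 98 held islands in all 3 untreated knockdown libraries, as did 129 erased regions in all, and by called islands they were gained only against the untreated library of the cytokine experiment. DESeq2 called 21 higher (21.4%) and 1 lower, against 20.2% higher and 19.8% lower of all regions tested, so its share of higher calls was near that of all. Without the scramble pair edgeR called 21 higher and 1 lower, against 17.05% and 15.6% of all regions. Without the shCEBPb pair it called 20 (20.4%) and 1, against 17.26% and 15.75% of all regions.

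The lowest adjusted p belonged to chr10:96087801-96102400, 42.3 kb from Eea1, which encodes an early endosome tether (log2 fold change 3.79 ± 0.25 SE, edgeR adjusted p = 0.000637). It went from 65.9 to 972 normalised reads in scramble, from 51.2 to 442 in shJunB and from 43.5 to 861 in shCEBPb cells. At 4 h of IFNγ in the cytokine experiment it held 326 reads. The region at Tspan18, a tetraspanin gene, and Trp53i11 rose by 3.02 ± 0.31 (edgeR adjusted p = 0.00168), from 95.1, 67.3 and 47.9 reads to 528, 430 and 715. The other 4 of the 6 lowest adjusted p belonged to regions 64.6 kb from Arrdc4 (1.85), in Rpap3 (1.50), 14.5 kb from Slc46a1, the folate transporter gene (1.55), and at the start of Gsap (1.56), all higher in 3 of 3 backgrounds. The 3 lower regions, named because they are few, lay 10.0 kb from Smim13 (-0.75), 71.5 kb from Asph (-0.77) and 4.11 kb from Kyat1 (-0.54). Their untreated and IFNγ reads in scramble cells were 84.3 and 50.7, 82.1 and 68.7, and 199 and 128.

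Erased regions lay away from start sites. Outside chromosome 18, for which no start sites were at hand, 87 of 2695 erased regions (3.23%, 2.59 to 3.97) held a start site of a protein-coding gene, against 4.37% (3.63 to 5.22) of retained regions, 23.02% of all regions and 32.4% of regions with an IFNγ 4 h island. Gene bodies held 50.8% and intergenic sequence 45.9% of them, against 54.3% and 41.4% of retained regions and 44.8% and 32.2% of all. The start sites cover 17491 of 21883 protein-coding genes, so these shares are lower bounds for start sites. Another erased region lay within 50 kb of 34.0% of erased regions and a retained region within 50 kb of 26.9%. Retained regions were alike, with another retained region within 50 kb of 31.3% and an erased one within 50 kb of 25.9%. A region with an untreated island lay within 50 kb of 74.3% of erased and 74.7% of retained regions.

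At start sites the reads of the erased regions were modest. Among the start sites at hand Rnase10 led with 563 normalised reads in IFNγ 4 h, followed by Defb33 (289), Nme8 (272), Nt5c1a, a cytosolic 5′-nucleotidase gene (230), Pdyn, which encodes prodynorphin (182), and Gfi1b (178). The region at Car2 held 620 reads, but its nearest start site at hand was 536 kb away, so it was not ranked here. Defb33, with the GAS shown above, held an island in no other library. Gfi1b held none in the cytokine experiment other than IFNγ 4 h and 65.4, 74.6 and 183 reads in scramble, shJunB and shCEBPb cells with IFNγ, with no untreated island. Nme8 held 115 reads in IFNγ 2 h, no island in IFNγ plus IL-4 2 h, and 106, 191 and 204 reads in scramble, shJunB and shCEBPb cells with IFNγ, with no untreated island. Pdyn held 161 reads in IFNγ 2 h and 92.7 with IL-4 added, 1.74-fold fewer (1.33 to 2.28).

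The 250 bases before the start were searched on both strands for 7 motifs in 96 windows at erased regions, 139 at retained regions and 21262 of all protein-coding genes. A GAS (TTCNNNGAA) was in 14 windows at erased regions (14.6%, 8.21 to 23.3), 5.04% (2.05 to 10.1) at retained regions and 6.58% of all. The 14 genes with it include Gfi1b, Defb33, Pdyn, Ifna14, an interferon-α gene, and Tnfaip6. A STAT6 type motif (TTCNNNNGAA) was in 4.17%, 9.35% and 5.39%, and an ISRE core (GAAANNGAA) in 7.29%, 12.2% and 6.83%. AP-1 (TGANTCA) gave 3.13%, 6.47% and 6.13%, C/EBP (TTNCNNAA) 44.8%, 43.2% and 34.1%, PU.1 (GAGGAAG) 9.38%, 10.8% and 10.3%, and NF-kB (GGGNNNNTCC) 17.7%, 15.8% and 18.1%. Matches of different motifs may overlap, as those of C/EBP and PU.1 do before Nme8. A match is a run of letters and no measured binding, and the intergenic regions could not be searched.

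Erased regions touched 1262 of the 14655 protein-coding genes that any region touched (8.61%), counting the gene and 1 kb either side, and retained regions 1423, with 314 genes touched by both. Of 250 genes on 12 lists of macrophage activation 11 were touched by an erased region (4.4%) and 21 by a retained region (8.4%). Of 16 measured interferon GTPases, which defend against intracellular pathogens, 0 were touched by an erased region and 6 by a retained one, Gbp2 and Gbp4 among them. The count was also 0 on 7 other lists, of MHC class I (15 genes), MHC class II (11), NF-kB and inflammation (27), glycolysis (17), alternative activation (27), AP-1 and C/EBP factors (22) and cholesterol synthesis (19). The 11 genes fell on the antiviral list (4 of 25), the interferon signalling list (3 of 19), the classical activation list (3 of 28) and the list of cytokine receptors (1 of 24).

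Among signalling genes the region with the most reads was in Jak2, a kinase of the IFNγ receptor (chr19:29273401-29277800). It held 167 normalised reads in IFNγ 4 h, 54.9 in IFNγ 2 h and none called in IFNγ plus IL-4 2 h. The knockdown libraries with IFNγ held 93.3, 152 and 104 reads there and the untreated ones no island. The region in Stat3 (90.8 reads) was called in IFNγ 4 h alone.

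Among antiviral genes Oasl1, of the oligoadenylate synthetase family (chr5:114930801-114939600), held 49.5 reads in IFNγ 4 h, near the first quartile of erased regions (47.3). It held 155, 162 and 168 reads in scramble, shJunB and shCEBPb cells with IFNγ, with no island in untreated cells. The region in Ddx58, the RNA sensor RIG-I, held 51.0 reads at 4 h and 41.7 at 2 h of IFNγ and no other island. Samhd1, which degrades nucleotides, stood at 39.8 reads and Eif2ak2, the kinase PKR, at 28.5, both under the 5th percentile of islands in IFNγ 4 h (42.8). In the classical activation group Nos2, the inducible nitric oxide synthase, had an erased region (chr11:78928201-78936000) with 42.8 reads in IFNγ 4 h and 134 and 62.6 in shJunB and shCEBPb cells with IFNγ. Cd86, a costimulatory ligand gene, held 60.0 reads at 4 h and 186 at 2 h of IFNγ, with no island in IFNγ plus IL-4 2 h, and has a retained region as well. Ptgs2, the inducible cyclooxygenase (57.0 reads), and Il23r (99.8) had erased regions with islands in IFNγ 4 h alone, and Il23r has a retained region as well. These regions are parts of their loci, and other regions of the same genes are not described by them.

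Some long genes carried several erased regions: Wwox and Hdac9 had 7 each, of 24 and 25 regions, and Dock11, a guanine nucleotide exchange factor gene, 6 of 14. Reck, which encodes a membrane inhibitor of matrix metalloproteinases, had 4 of its 5 regions erased. In all, 57 genes were touched by 3 or more.

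Other regions close to erased ones also had fewer reads with IL-4. Regions that were neither erased nor retained, lay within 50 kb as the nearest of their kind and had islands in both libraries had a median log2 ratio of IFNγ plus IL-4 to IFNγ at 4 h of -0.41 beside erased regions (n = 1709), -0.12 beside retained ones (n = 1787) and -0.02 over all such regions (n = 18512). Beside erased regions 75.3% were below 0 and 23.8% at least 2-fold lower, against 52.0% and 9.53% of all. These 4 h values come from libraries that the choice used. At 2 h, from libraries it did not use, the medians were -0.12 beside erased regions (n = 1692), -0.01 beside retained ones (n = 1784) and 0.01 over all (n = 19036), with 61.5%, 51.6% and 49.0% below 0. The groups overlap widely, and regions beside both kinds count in both.

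**Figure D5:**
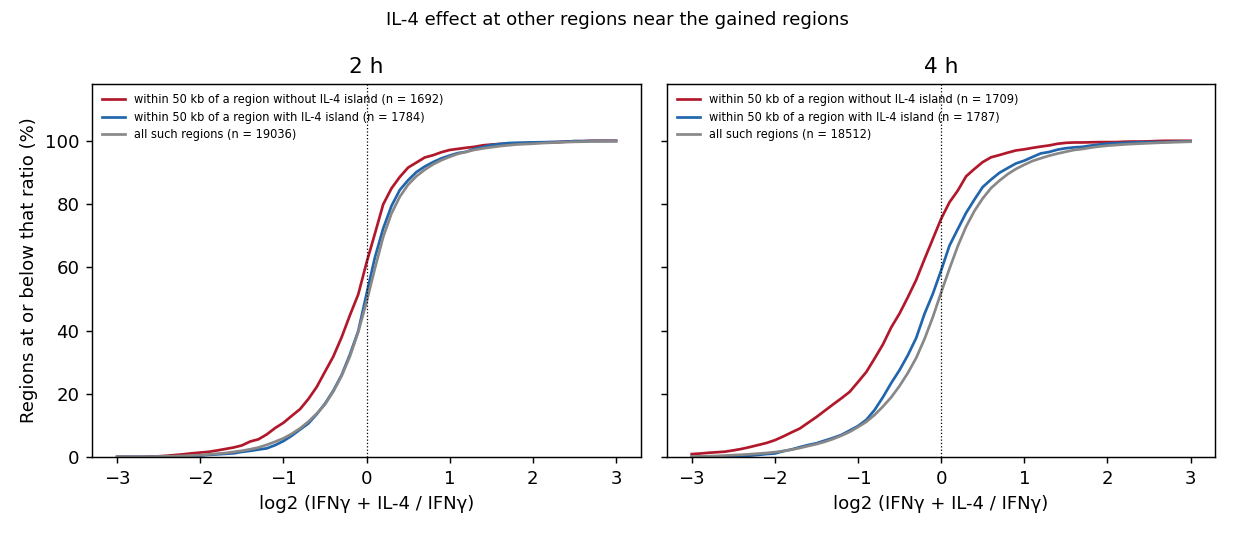
Cumulative percent of regions at or below a log2 ratio of IFNγ plus IL-4 to IFNγ reads at 2 h (left) and 4 h (right), for regions within 50 kb of an erased region (red), within 50 kb of a retained region (blue) and all such regions (grey). The red curve lies to the left of the others: its median was -0.12 (2 h) and -0.41 (4 h), that of the grey curve 0.01 and -0.02.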

How the data were processed

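H3K27ac was measured in 13 libraries, 7 of the cytokine and 6 of the knockdown experiment, grouped by their titles. Per the submitters' processing notes, the authors used Bowtie2 2.2.6 and SICER 1.1, and the notes name mm10 and GRCm38. The deposited counts are raw ChIP and control reads per island. The deposited p-value and FDR columns and the fold column (ratio of ChIP to control) come from the authors' island calling. Only islands past an FDR of 0.01 are listed, so a difference in depth or threshold can decide whether an island is present. Control reads were equal for all 29680 island coordinates shared by libraries, so 1 control served all. The fold column also gave each library's total reads relative to the control. The totals, and the shares of reads in islands, rest on the smallest control total found that made all of them whole numbers.

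Normalised reads are raw reads over a size factor, the median of ratios across the 14347 regions called in all 13 libraries. Raw reads of a region are summed over the islands called in that library, and stretches outside them are not counted. Folds, log2 ratios and edgeR counts may thus cover unlike stretches of the same region. Intervals are exact binomial (95%) unless called distribution-free, and PCR reads carry no molecular identifiers. The edgeR fit (4.0.16, R 4.3.3) used counts with a background block, was checked on drawn counts of known fold, and DESeq2 (1.42.0) was an alternative. Other steps used Python 3.11.15, pandas 2.3.3, NumPy 2.4.6, SciPy 1.17.1 and matplotlib 3.10.9. Genes and start sites are RefSeq's, GRCm38.p6. The members, the gene lists, motifs and alternatives were chosen with earlier results of these data known. Named regions are the 12 with the most IFNγ 4 h reads, those at listed genes (at most 4 per list), the 6 with the most reads at start sites, in the IFNγ 2 h only group and in the group gained in all 3 backgrounds, the 6 lowest adjusted p, and 3 each side of the threshold. The region at 1 listed gene is not reported here. No sample was left out, and 0 columns were left without a sample.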

Additional observations from a re-analysis of the deposited data

How the results depend on the processing

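The number of erased regions stayed within 1.5 times of 2785 when islands were merged over the 4 libraries of the choice (3487) or the 7 cytokine libraries (3284), at 50 reads or more (1963), at an FDR under 1e-06 (1939), and with no barred island within 2 kb (2559). With IFNγ 4 h reads scaled to the shallowest of the 4 libraries, 1034 still reached the barred libraries' 5th percentiles of raw reads, which were not scaled. With touching islands merged, chosen after seeing the data, 2759 were found. Merging over the 4 libraries gave 26.0% with an island in IFNγ 2 h, 4.56% in IL-4 2 h, 24.7% in all 3 IFNγ and 7.92% in all 3 untreated knockdown libraries. At 50 reads or more, IFNγ 2 h gave 24.7% and all 3 IFNγ knockdown libraries 21.7%. At an FDR under 1e-06 in the library counted, the shares were 18.3% for IFNγ 2 h, 13.9% for IFNγ plus IL-4 2 h, 1.83% for IL-4 2 h, 10.4% for all 3 IFNγ and 2.33% for all 3 untreated knockdown libraries. Without the scramble library, also chosen after seeing the data, 22.01% held both other IFNγ islands. Missing islands filled in gave median log2 ratios of 0.56 at 2 h and 0.66 in scramble cells, with fill values that themselves favour positive ratios. With missing islands filled in, edgeR called 269 higher (21.3%) and 5 lower of 1265, against 16.65% and 16.46% of all 31539 regions. The DESeq2 test gave 21 and 1, that is 21.4% higher, against 20.2% of all regions. Leaving out a background gave 20 to 25 higher and 1 lower in each, against 17.05% to 17.26% higher of all regions. Of 48 alternatives over 10 results, 24 stayed within the limit set for them. That limit was the 95% interval of the main value for shares and medians and 1.5 times for counts. A reversal could be recorded for the median log2 ratios alone, and none of these changed sign. The cause of each move was not tested beyond the fewer or more regions each setting holds. Single libraries, thresholds on islands and depth limit every value: an erased region with few reads could have been missed in a shallower library.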
